A study of Schizosaccharomyces pombe with 8 samples.

Results

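In fission yeast (Schizosaccharomyces pombe), the response of each transcript to hydrogen peroxide (H2O2) was compared between wild type and cells under the label ∆wee1. The quantity described is the response difference: the change of log2(FPKM + 1) after H2O2 in the pools labelled ∆wee1 minus the same change in wild type. FPKM are fragments mapped to a transcript, scaled to its length and to the size of the library. It was taken for nuclear protein-coding genes, recognised by the prefixes SPAC, SPAP, SPBC, SPBP, SPCC and SPCP of their systematic names, that reached 5 FPKM in the highest pool. These were 4811 genes, of 5159 nuclear coding genes and 7092 genes listed in all, and no measured response entered the choice.

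Both strains carry h- and ura4-D18 and a leucine marker, written leu1-32 for wild type and leu-32 for the other strain, whose wee1 allele is given as wee1::ura4+. Mid-log cultures in rich medium (YES) of each strain were either left untreated or given 20 mM H2O2 for 15 min, with 2 libraries in each of the 4 groups. The files give 1 pooled FPKM per gene and group, so the depth of a library and the spread between libraries are unknown, and nothing says that the 2 libraries of a group came from separate cultures. A response difference of +1 therefore means that the ratio of treated to untreated was 2-fold higher in the pool pair labelled ∆wee1. It can come from a stronger rise, a weaker fall or a response of opposite sign.

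Wee1 is a protein kinase that delays mitosis by phosphorylating the cyclin-dependent kinase Cdc2, and cells without it divide at a small size. Fission yeast answers H2O2 mainly through the stress-activated kinase Sty1, which acts on the transcription factor Atf1, and through the factor Pap1, which is oxidised by peroxide and drives antioxidant genes. At high doses of peroxide the Sty1 branch dominates, and growth genes such as those for ribosomes are usually lowered.

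Library facts that touch these values were as follows. wee1 itself was listed at 8.91 and 8.17 FPKM in the untreated and treated wild-type pools and at 16.1 and 15.5 FPKM where the label says ∆wee1, which goes against that label, so the pools are called by their label throughout. ura4 was listed at 0.131 and 0.0704 FPKM in wild type and at 185 and 235 FPKM under the ∆wee1 label, which matches the marker. Ribosomal RNA took 3.13% of all FPKM in untreated wild type, 22.2% in treated wild type, 10.9% and 3.19% in the untreated and treated pools under the ∆wee1 label, so its share moved in opposite directions in the 2 strains. Its part in the results below was not tested. Scaling each pool to the same sum over nuclear coding genes moved the median response difference of all 4811 genes from 0.0012 to 0.11, and each value below may be read with that shift in mind.

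Over all 4811 genes the responses of the 2 strains lay close to each other. The response difference had a median of 0.0012 and an SD over genes of 0.33, with 50.1% of genes above 0 and 49.9% below. The wild-type response was the wider one, with an SD over genes of 0.52 and quartiles of -0.30 and 0.21, against 0.43, -0.22 and 0.15 under the ∆wee1 label. The authors' deposited table called 318 genes up (6.62% of 4800 listed) and 446 down (9.29%) in wild type, and 263 up (5.47% of 4805) and 237 down (4.93%) under the ∆wee1 label. The words rose and fell are kept below for genes that this table calls in the strain named.

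**Figure D1:**
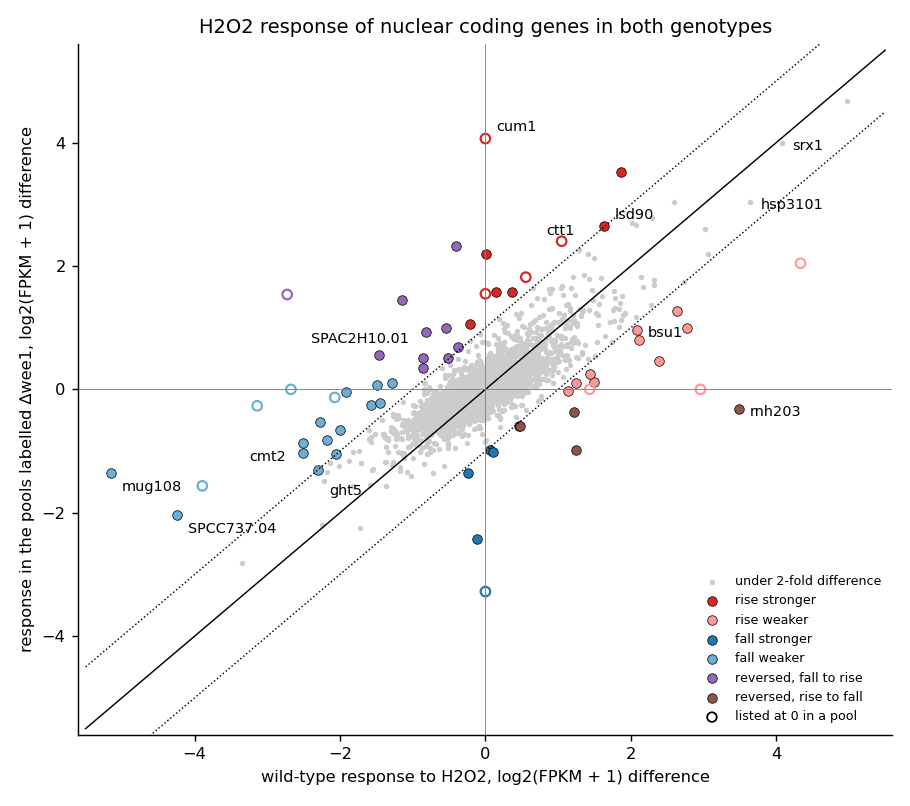
Response to H2O2 in wild type (horizontal axis) and in the pools labelled ∆wee1 (vertical axis), each a difference of log2(FPKM + 1), for 4811 nuclear coding genes. Solid line: equal responses; dotted lines: a 2-fold response difference; coloured points are the 60 genes past it by class, open where a pool is listed at 0. Weaker falls under the ∆wee1 label are the most frequent class, with 18 genes against 5 stronger falls. Without genes in a shared locus these counts are 4 and 2, and weaker falls no longer lead.

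The falls were where the strains parted most. Genes were banded by the mean of both responses, leaving out those listed at 0 in a pool. Of 58 genes with a mean response of at most -1, 48 had the larger fall in wild type and 10 under the ∆wee1 label, with median responses of -1.46 and -1.11 and a median response difference of 0.47. Of 355 genes with a mean response between -1 and -0.5, 287 had the larger fall in wild type, with medians of -0.73 and -0.54.

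Among induced genes the gap was smaller. Of 103 genes with a mean response of at least 1, 61 had the larger rise in wild type and 42 under the ∆wee1 label. Their medians were 1.43 and 1.31. For the 245 genes with a mean response between 0.5 and 1 these counts were 146 and 99, with medians of 0.73 and 0.64. Over all 4811 genes the response was larger in size in wild type for 3084 and under the ∆wee1 label for 1727, so the induced bands were near that share. After quantile normalization, which gives every pool the same set of values, the median response difference of the most lowered genes was 0.27. Without genes in a locus that the files give to several genes it was 0.34.

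A z test was made of each response difference, from the standard errors that the fold changes and statistics of the authors' deposited table imply (each ± below), with Benjamini-Hochberg adjustment over the 6200 genes that allowed it. Of 4795 coding genes tested, 2 passed with a higher response under the ∆wee1 label (0.0417%) and 1 with a lower one (0.0209%), at an adjusted p under 0.05. Over all 6200 genes, noncoding ones included, 2 passed higher (0.0323%) and 18 lower (0.29%). At an unadjusted p under 0.05 there were 41 higher (0.855%) and 18 lower (0.375%), fewer than 1 gene in 20, and a robust SD over the z values came to 0.469, so these errors are wide. The p-values in the authors' deposited table imply smaller errors: their normal deviates are 1.42 times the listed statistics in the median. With errors rescaled to those p-values, 27 coding genes passed, 19 higher and 8 lower, and those described below are marked as passing with the smaller errors. SPAC2H10.01 and rnh203 are among them. The others not described further are puf5 (-0.84), zpr1 (-0.78), pqr1 (0.73), exg1 (0.76), SPAC4H3.03c (0.80), SPBC409.08 (0.84), lsb1 (0.96) and SPCC16A11.15c (0.99), given with their response differences. For 18 genes, cmt2 among them, no such error could be had. Outside the 3 genes that passed, the lowest adjusted p of the genes described below was 0.0774 (mug108), followed by 0.0984 (pun1) and 0.14 (prz1 and mel1), by the z test from the authors' statistics. A gene that did not pass is not shown to respond alike in both strains.

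**Figure D2:**
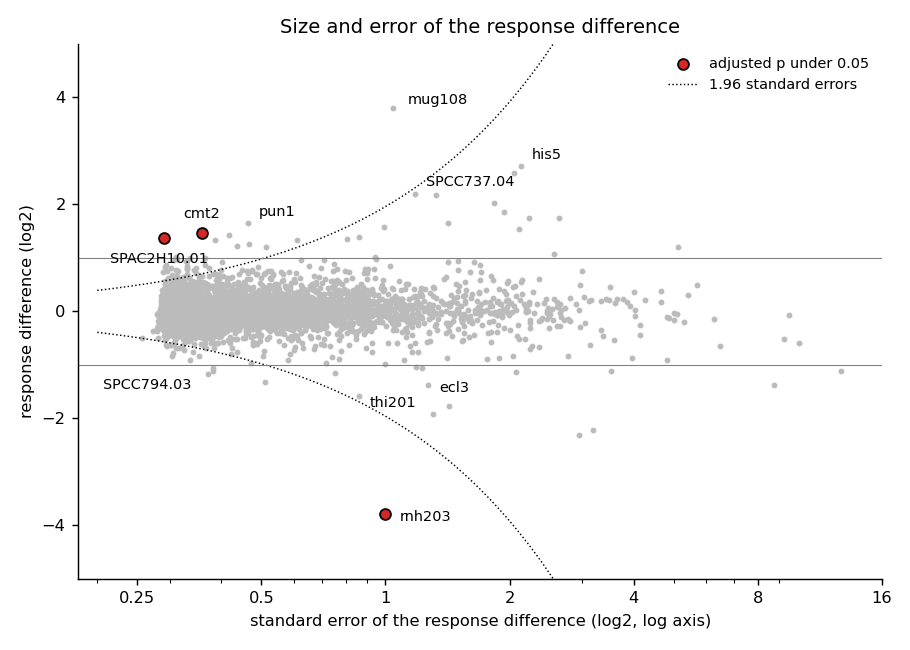
Response difference (vertical axis, log2) against its standard error (horizontal axis, log2 units on a log axis) for the 4795 coding genes with a test. Red points are the 3 that passed, grey lines mark a 2-fold difference, and many genes past 2-fold, such as his5 and ecl3, have errors of 1 or more.

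The most firmly supported gene was SPAC2H10.01, annotated in the files as an uncharacterized transcriptional regulatory protein (RefSeq ASM294v3, chromosome I:5273022-5275983, + strand). Its pooled levels were 68.8 FPKM in untreated and 37.4 FPKM in treated wild type, and 42.9 and 61.6 FPKM under the ∆wee1 label. It fell in wild type (-0.86) and rose under the ∆wee1 label (0.51), a response of opposite sign with a difference of 1.37 ± 0.29 (z test from the authors' statistics, adjusted p = 0.000987). Untreated it was lower under the ∆wee1 label by 0.67, and after H2O2 it was higher by 0.70. It kept its call under every scaling, pseudocount and filter tried, including the set without genes in a shared locus.

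cmt2, a probable catechol O-methyltransferase of the files' annotation, lies near an end of chromosome II (II:64487-65551, - strand). It went from 59.7 to 9.69 FPKM in wild type and from 197 to 95.5 FPKM under the ∆wee1 label. It fell in both strains, with responses of -2.50 in wild type and -1.04 under the ∆wee1 label, so its fall was weaker by 1.47 ± 0.36 (z test from the authors' statistics, adjusted p = 0.0143). The strains already differed untreated, where cmt2 was higher under the ∆wee1 label by 1.71, and after H2O2 it was higher by 3.17. Its call was lost with a pseudocount of 5 FPKM and after quantile normalization, and it shares its locus with other genes in the files.

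rnh203, whose symbol is that of a subunit of RNase H2 and which the files call uncharacterized, had the one lower response that passed. Untreated wild type was listed at 0.0354 FPKM, and the other pools at 10.6 FPKM (treated wild type), 13.9 FPKM and 10.99 FPKM (untreated and treated, ∆wee1 label). Only 1 of the 4 pools stands apart. The response difference was -3.79 ± 0.9973 (adjusted p = 0.0442), the authors' deposited table called neither response, and the call was lost with a pseudocount of 0.1 or 5 FPKM, with equal coding sums and after quantile normalization. rnh203 also shares its locus with another gene in the files.

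**Figure D3:**
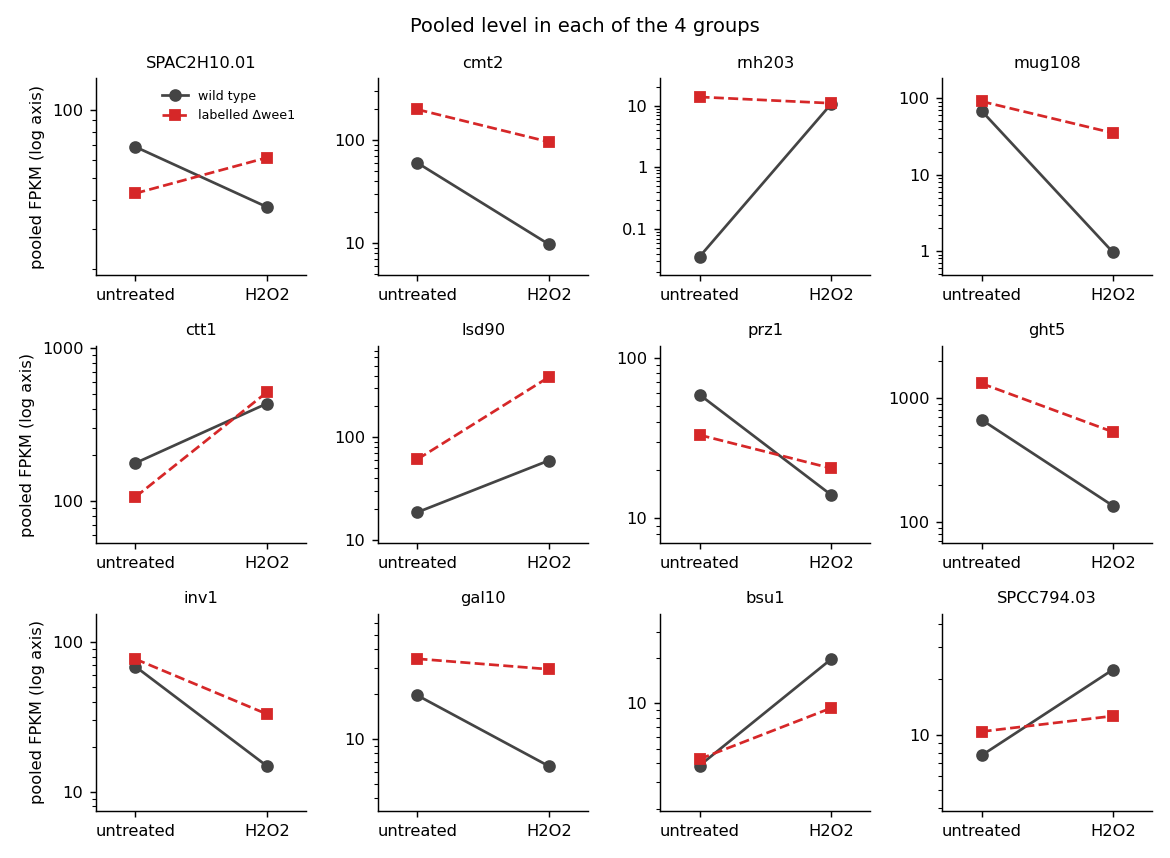
Pooled FPKM (log axis, own scale in each panel) of 12 genes before and after H2O2, in wild type (grey circles) and in the pools labelled ∆wee1 (red squares). Each point is 1 pooled value of 2 libraries, with no replicate spread. SPAC2H10.01 crosses over, cmt2, mug108, prz1, ght5, inv1 and gal10 have a flatter fall under the ∆wee1 label, ctt1 and lsd90 a steeper rise, and bsu1 and SPCC794.03 a flatter rise.

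The sequences before the start of 6 genes are shown, as examples of a reversed response (SPAC2H10.01), a weaker fall (cmt2), a stronger rise (lsd90) and weaker rises (bsu1 and SPCC794.03). ctt1 is added as a larger rise just under the 2-fold mark. They were chosen after their values were seen, and were read by locus tag from RefSeq (ASM294v3), up to 250 bases before the annotated gene start and less where a neighbouring coding gene covers that stretch. Capitals mark a match on either strand to TGACGT (the core site of Atf1), TTACGTAA (Pap1), GAANNTTC (a pair of heat shock factor units), ACGCGT (the MBF cell cycle factor), GTAAACA (forkhead factors) or CCCCT (the stress element known from budding yeast).
SPAC2H10.01: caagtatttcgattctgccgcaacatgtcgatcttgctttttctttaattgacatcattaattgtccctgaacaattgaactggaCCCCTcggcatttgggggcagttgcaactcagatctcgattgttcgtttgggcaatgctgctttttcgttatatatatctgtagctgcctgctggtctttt
cmt2: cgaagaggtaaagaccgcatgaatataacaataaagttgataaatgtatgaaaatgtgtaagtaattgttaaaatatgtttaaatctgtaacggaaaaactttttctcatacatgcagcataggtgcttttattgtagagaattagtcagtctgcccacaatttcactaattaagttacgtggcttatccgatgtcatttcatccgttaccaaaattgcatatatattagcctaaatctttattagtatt
ctt1: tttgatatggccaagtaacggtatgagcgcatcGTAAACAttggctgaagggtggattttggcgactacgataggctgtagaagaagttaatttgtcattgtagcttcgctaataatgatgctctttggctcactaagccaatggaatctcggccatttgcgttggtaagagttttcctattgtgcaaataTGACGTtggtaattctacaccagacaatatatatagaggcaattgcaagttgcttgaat
lsd90: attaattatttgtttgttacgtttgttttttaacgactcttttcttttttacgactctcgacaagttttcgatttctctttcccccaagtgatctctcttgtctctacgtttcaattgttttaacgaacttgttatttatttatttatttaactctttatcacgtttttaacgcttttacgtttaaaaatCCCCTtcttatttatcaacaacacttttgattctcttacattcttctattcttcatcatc
bsu1: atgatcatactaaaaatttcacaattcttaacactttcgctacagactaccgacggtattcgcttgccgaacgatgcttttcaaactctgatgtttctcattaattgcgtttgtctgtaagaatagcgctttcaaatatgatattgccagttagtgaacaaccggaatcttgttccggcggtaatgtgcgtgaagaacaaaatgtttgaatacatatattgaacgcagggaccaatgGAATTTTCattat
SPCC794.03: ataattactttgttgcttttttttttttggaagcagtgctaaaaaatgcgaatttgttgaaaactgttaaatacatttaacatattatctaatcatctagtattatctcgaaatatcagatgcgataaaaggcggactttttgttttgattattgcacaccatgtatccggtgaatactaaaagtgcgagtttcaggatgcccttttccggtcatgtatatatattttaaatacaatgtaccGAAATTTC

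These stretches lie at I:5272836-5273021 (+ strand, 186 bases) for SPAC2H10.01, II:65552-65801 (- strand) for cmt2, III:58834-59083 (- strand) for ctt1, II:1950256-1950505 (- strand) for lsd90, I:3549784-3550033 (+ strand) for bsu1 and III:245677-245926 (+ strand) for SPCC794.03. The catalase gene ctt1 held the Atf1 core 54 to 59 bases before its start and a forkhead match at 211 to 217 bases. The promoters of bsu1 and SPCC794.03 each held the heat shock pair within 13 bases of the gene start. A match describes letters in this window and shows no binding. Over all 4800 promoters read, 5.6% held the Atf1 core, 9.50% the heat shock pair and 8.12% CCCCT. The Atf1 core was in 35.0% of the 20 promoters of known Sty1-Atf1 targets. It was in 9.80% of 153 genes with a response at least 1.5-fold higher and in 4.40% of 91 at least 1.5-fold lower. The classes past 2-fold did not show this order. The core was in 0 of 10 stronger rises, which do not include ctt1, 0 of 18 weaker falls and 0 of 10 falls reversed to a rise. For weaker rises it was 0 of 12, for stronger falls 1 of 5 and for rises reversed to a fall 1 of 5.

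Without regard to the test, 38 genes (0.79%) had a response at least 2-fold higher under the ∆wee1 label and 22 (0.457%) at least 2-fold lower. These 60 genes were low in level: the median of their highest pool was 25.4 FPKM in the higher and 18.2 FPKM in the lower group, against 46.0 FPKM for all 4811 genes. A pool was listed at 0 for 13 of the 60, and of the other 47 only 13 had a standard error of at most 0.5, against a median error of 0.39 for all genes. Of the genes placed in RefSeq, 13.2% of the higher group (5 genes) and 9.09% of the lower (2 genes) lay within 100 kb of a chromosome end. The share of all genes was 2.58%, and fission yeast keeps many stress and nutrient genes there. These counts are small, and cmt2, SPBPB21E7.10 and SPBPB21E7.11 of the higher group are neighbours at the same end. At 1.5-fold, 154 genes were higher (3.20%) and 92 lower (1.91%). When the mean of the 4 pools had to reach 5 FPKM, 28 genes were at least 2-fold higher and 15 at least 2-fold lower.

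By class, the largest was a weaker fall under the ∆wee1 label (18 genes), followed by a weaker rise (12), a stronger rise (10), a wild-type fall reversed to a rise (10), a stronger fall (5) and a wild-type rise reversed to a fall (5). A response counted as reversed where the signs were opposite and both responses were at least 0.3 in size. With errors of at most 0.5 these classes held 6, 2, 3, 1, 0 and 1 genes. Without genes in a shared locus they held 4, 4, 4, 4, 2 and 0, so weaker falls were then not the largest class.

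Of the 18 weaker falls, mug108 had the largest response difference, and 4 of the 18 were listed at 0 in a pool. A locus shared with other genes was given for 14 of the 18, among them mug108, pun1, prz1, SPCC737.04 and gal10. Shared loci are common in these data, with 3134 of all 4811 genes (65.1%) in one. mug108, a gene raised in meiosis, went from 68.8 to 0.961 FPKM in wild type and from 91.6 to 35.3 FPKM under the ∆wee1 label, a response difference of 3.80 ± 1.05. The authors' deposited table called its fall under the ∆wee1 label but not the larger one in wild type. pun1, of the SUR7 family by annotation, fell from 86.7 to 14.3 FPKM in wild type and from 86.6 to 47.1 FPKM under the ∆wee1 label. The untreated pools of pun1 were level and the treated pools 1.65 apart, with a response difference of 1.65 ± 0.46.

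prz1, the transcription factor that calcineurin activates in calcium signalling, fell from 58.8 to 14.02 FPKM in wild type and from 33.0 to 20.5 FPKM under the ∆wee1 label. The strains changed places, with prz1 lower under the ∆wee1 label untreated and higher after H2O2. The response difference was 1.33 ± 0.39, and prz1 passed with the smaller errors. SPCC737.04, of the uncharacterized UPF0300 family, fell from 69.8 to 2.76 FPKM in wild type and from 46.5 to 10.6 FPKM under the ∆wee1 label, with a wide error on the difference (2.20 ± 1.18).

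Several sugar genes had a smaller fall under the ∆wee1 label, with ght5 and gal10 past the 2-fold mark and inv1 just under it. ght5, the main high-affinity glucose transporter, fell from 670 to 135 FPKM in wild type and from 1316 to 534 FPKM under the ∆wee1 label. Both pools labelled ∆wee1 were above their wild-type counterparts, and the response difference was 1.004 ± 0.34. inv1, the secreted invertase that splits sucrose, fell from 68.8 to 14.9 FPKM in wild type and from 77.2 to 33.1 FPKM under the ∆wee1 label. Its response difference was 0.94 ± 0.33, and it too has a shared locus. gal10, an enzyme of galactose use, fell from 19.6 to 6.56 FPKM in wild type and was listed at 34.6 and 29.4 FPKM under the ∆wee1 label, with a response difference of 1.22 ± 0.44. All 3 passed with the smaller errors.

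The neighbours of gal10 near the right end of chromosome II, gal1 and gal7, had response differences of 0.53 ± 0.34 and 0.42 ± 0.47. Over the list of glucose-repressed genes, which holds inv1, the gal genes and fbp1 (fructose-1,6-bisphosphatase), 9 of 10 members were above 0 with a median of 0.43, against 0.0012 for all genes. The authors' deposited table called 6 of them down in wild type and 4 under the ∆wee1 label. None passed the z test. The median response of the list was -0.75 in wild type and -0.34 under the ∆wee1 label. The 355 genes banded above with a mean response between -1 and -0.5 had a median response difference of 0.21, whatever their function. For the hexose transporters 4 of 7 were above 0 with a median of 0.19, which was -0.16 with a pseudocount of 5 FPKM, and ght8 (0.64 ± 0.32) and ght1 (0.53 ± 0.59) followed ght5.

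Among genes with a larger rise under the ∆wee1 label, ctt1 lay just under and lsd90 just past the 2-fold mark. ctt1, whose enzyme breaks down H2O2, was listed at 178 FPKM untreated and 435 FPKM treated in wild type, and at 107 and 515 FPKM under the ∆wee1 label. It rose in both strains, by 1.29 and by 2.26, from a lower untreated level under the ∆wee1 label to a treated level that was 0.24 higher. The response difference was 0.98 ± 0.31, and ctt1 passed with the smaller errors. lsd90, a stress protein named for large and small daughter cells, rose from 18.5 to 59.3 FPKM in wild type and from 61.0 to 386 FPKM under the ∆wee1 label. It was higher under the ∆wee1 label in both conditions, and its response difference was 1.02 ± 0.31. It also passed with the smaller errors, and with a pseudocount of 5 FPKM.

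pil2, a component of eisosomes (folds of the plasma membrane), stayed between 6.21 and 9.10 FPKM in 3 pools and reached 20.0 FPKM in the treated pool labelled ∆wee1. The authors' deposited table called the response under that label and not the wild-type one, and the difference itself was 1.27 ± 0.47, which passed with the smaller errors. mel1, a secreted alpha-galactosidase, was listed at 0.312 and 0.456 FPKM in wild type and at 4.98 and 16.9 FPKM under the ∆wee1 label. The response difference of mel1 was 1.43 ± 0.42 and passed with a pseudocount of 5 FPKM, where low values weigh less. cum1 was listed at 0 in both wild-type pools and at 3.73 and 78.2 FPKM under the ∆wee1 label, and SPAC4F10.17 at 0, 0, 10.9 and 33.9 FPKM in the same order. Neither allowed a test.

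Next to cmt2 at the left end of chromosome II, eno102, SPBPB21E7.10 and SPBPB21E7.11 were highest in the treated pool labelled ∆wee1. eno102, a second enolase gene, was listed at 2.83 and 6.97 FPKM in wild type and at 31.1 and 101 FPKM under the ∆wee1 label, with a response difference of 0.62 ± 0.62. SPBPB21E7.11 went from 0.545 to 0.998 FPKM in wild type and from 3.23 to 11.7 FPKM under the ∆wee1 label (1.21 ± 0.51), and it overlaps SPBPB21E7.10, so reads of the 2 genes may not be told apart. SPBPB21E7.10 was listed at 0 and 0.470 FPKM in wild type and at 2.43 and 11.101 FPKM under the ∆wee1 label. The wild-type response was called for none of these 3 genes and the one under the ∆wee1 label was called up for each.

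Of the 12 weaker rises, bsu1 and SPCC794.03 were those with an error of at most 0.5. bsu1, the vitamin B6 transporter of the plasma membrane, rose from 3.86 to 19.6 FPKM in wild type and from 4.26 to 9.30 FPKM under the ∆wee1 label. The untreated pools were close and the treated ones 2-fold apart, with a response difference of -1.12 ± 0.38. SPCC794.03, an amino-acid permease by annotation, rose from 7.73 to 22.6 FPKM in wild type and was listed at 10.4 and 12.6 FPKM under the ∆wee1 label, a response difference of -1.18 ± 0.37. SPBC1271.08c, an uncharacterized protein, rose from 25.9 to 116 FPKM in wild type and from 15.7 to 28.2 FPKM under the ∆wee1 label (-1.31 ± 0.51). All 3 passed with the smaller errors.

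Just under the 2-fold mark, fes1, a nucleotide exchange factor of the chaperone Hsp70, rose in both strains to nearly the same level, from 228 to 606 FPKM in wild type and from 428 to 602 FPKM under the ∆wee1 label. Here the untreated pools were apart, and the response difference of -0.92 ± 0.34 also passed with the smaller errors. rpa49, a subunit of RNA polymerase I, was listed at 0.00140 and 19.2 FPKM in wild type and at 0 and 3.12 FPKM under the ∆wee1 label, with no test possible. ecl3, a small protein that extends chronological lifespan when raised, rose from 27.8 to 80.3 FPKM in wild type and stood at 11 and 12.1 FPKM under the ∆wee1 label, but its error was wide (-1.37 ± 1.27).

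Among the reversed responses, SPAC2H10.01 and SPCC1529.01 were those with an error of at most 0.5. SPCC1529.01, a transporter by annotation, was listed at 21.9 and 30.7 FPKM in wild type and fell from 23.4 to 15.2 FPKM under the ∆wee1 label, a response difference of -1.06 ± 0.38 that passed with the smaller errors. thi201, of the thiamine pathway, rose from 15.6 to 37.5 FPKM in wild type and was listed at 13.4 and 10.1 FPKM under the ∆wee1 label (-1.59 ± 0.86). his5, of histidine synthesis, had the largest reversal of the other kind among genes above 0 in every pool, from 22.9 to 17.1 FPKM against 5.65 to 32.2 FPKM, with an error nearly as large as the difference (2.72 ± 2.14). dmc1, the meiotic recombinase, was similar (2.03 ± 1.84). Unlike SPAC2H10.01, the genes SPCC1529.01, thi201, his5 and dmc1 each share a locus with other genes.

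Among the genes below the 2-fold mark that passed with the smaller errors were hri1, ctr4 and ste11. hri1, a kinase that slows translation under stress, fell from 19.5 to 5.73 FPKM in wild type and from 29.6 to 18.4 FPKM under the ∆wee1 label, a response difference of 0.95 ± 0.33. ctr4, a subunit of the copper transporter, was listed at 314 and 241 FPKM in wild type and rose from 127 to 179 FPKM under the ∆wee1 label (0.87 ± 0.29). ste11, the transcription factor that starts mating and meiosis, fell from 20.1 to 3.64 FPKM in wild type and from 8.75 to 2.86 FPKM under the ∆wee1 label (0.85 ± 0.33).

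**Figure D4:**
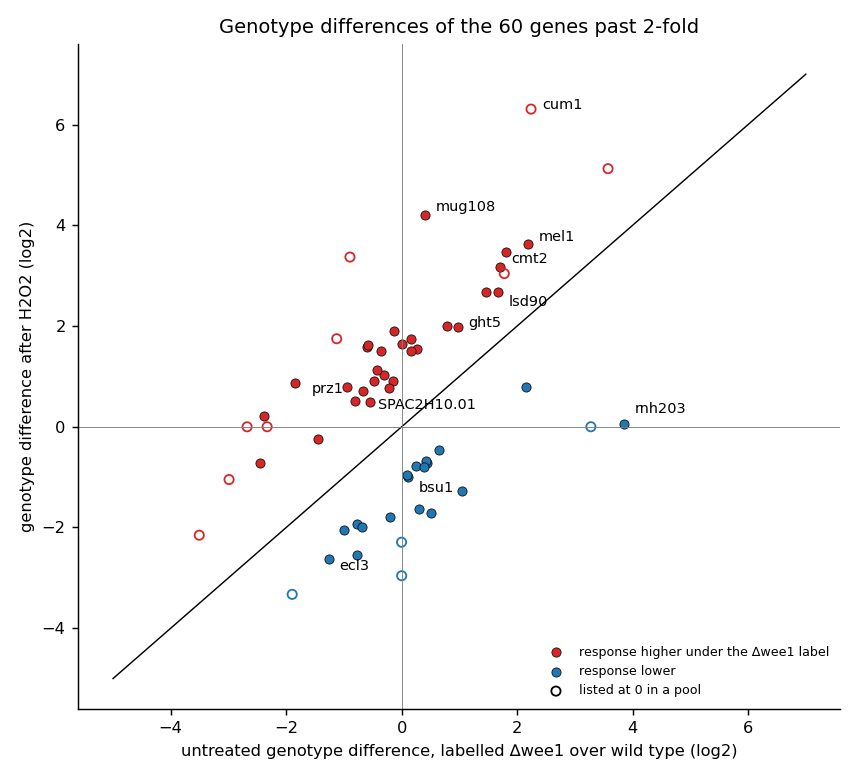
Untreated genotype difference (horizontal axis) and genotype difference after H2O2 (vertical axis), labelled ∆wee1 over wild type in log2(FPKM + 1), for the 60 genes past a 2-fold response difference; the vertical distance from the diagonal is the response difference. The gap was larger after H2O2 in 27 of the 38 genes with a higher response and in 18 of the 22 with a lower one; rnh203 lies at 3.84 untreated and 0.05 after H2O2.

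The same response difference can come from the untreated or the treated pools. Of the 38 genes with a higher response, 27 had the larger genotype gap after H2O2 and 11 untreated, and of the 22 with a lower response the counts were 18 and 4. Over all 4811 genes the gap was larger after H2O2 in 2951 and untreated in 1860. The untreated gap was -0.0016 for pun1 and 0.12 for bsu1, against 1.65 and -1.002 after H2O2. For mug108 it was 0.41 untreated and 4.21 after H2O2. rnh203 and fes1 were apart mainly untreated, at 3.84 and 0.91 against 0.05 and -0.0094 after H2O2. SPAC2H10.01, prz1 and his5 were apart in both conditions with opposite sign.

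Genes were then read by function in 31 lists. Of the known targets of Sty1 and Atf1, 17 of 20 had a response difference above 0, with a median of 0.24 against 0.0012 for all genes, and 6 passed 1.5-fold on the higher side, none on the lower. Their median response was 0.47 in wild type and 0.88 under the ∆wee1 label, and the authors' deposited table called 9 up in wild type and 14 under the ∆wee1 label. Beside ctt1 and lsd90, rds1 stood at 313 and 418 FPKM in wild type and rose from 232 to 541 FPKM under the ∆wee1 label (0.80 ± 0.35). gpd1, the glycerol-3-phosphate dehydrogenase of the osmotic stress response, stood at 1012 and 1035 FPKM in wild type and rose from 806 to 1360.1 FPKM under the ∆wee1 label (0.72 ± 0.35).

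For srx1, hsp9, gpx1, tps1 and tms1, also of the list, the response difference was smaller than its error. srx1, the sulfiredoxin that repairs oxidised peroxiredoxin, rose from 20.6 to 363 FPKM in wild type and from 45.3 to 736 FPKM under the ∆wee1 label, a response difference of -0.08 ± 0.92. hsp9, a small stress protein, was higher under the ∆wee1 label in both conditions with a response difference of 0.14 ± 0.38. gpx1, a glutathione peroxidase, differed by 0.09 ± 0.33 and tps1, of trehalose synthesis, by 0.26 ± 0.35, while tms1, a sorbitol dehydrogenase by annotation, was the lowest of the list at -0.54 ± 0.61. Glycerol metabolism outside the list held gut2, the mitochondrial glycerol-3-phosphate dehydrogenase, listed at 165 and 160 FPKM in wild type and risen from 103 to 175 FPKM under the ∆wee1 label (0.81 ± 0.33), which passed with the smaller errors.

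The regulators themselves were spread. sty1 (-0.01 ± 0.46) and pap1 (-0.01 ± 0.29) had response differences close to 0, both slightly above 0 with equal coding sums. atf1 was listed at 39.2 and 44.3 FPKM in wild type and rose from 47.4 to 71.8 FPKM under the ∆wee1 label (0.42 ± 0.29). pyp2, the phosphatase that switches Sty1 off and an Atf1 target, rose in both strains, with a difference of 0.49 ± 0.42. Over the list of stress kinase pathway genes 14 of 20 were above 0, with a median of 0.11.

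Antioxidant genes were spread on both sides of 0. Of 25 antioxidant and glutathione enzymes 13 were above 0, with a median of 0.02, and the authors' deposited table called 9 up in wild type and 10 under the ∆wee1 label. Of the 11 Pap1 targets 7 were below 0, with a median of -0.10, and 7 and 8 were called up. tpx1, the main peroxiredoxin, had a response difference of 0.13 ± 0.35 and trr1, the thioredoxin reductase, of 0.51 ± 0.40. In the small DJ-1 family of glyoxalases the members went apart: hsp3101 rose from 12.6 to 168 FPKM and from 34.9 to 294 FPKM (-0.60 ± 0.49), and hsp3103 from 26.5 to 49.6 FPKM and from 31.0 to 98.2 FPKM (0.75 ± 0.31).

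Growth genes lay on the other side. Of 81 ribosome biogenesis genes 76 had a response difference below 0 with a median of -0.25, and 62 of 81 were below 0 with equal coding sums. The direction of these genes was upward in both strains: their median response was 0.37 in wild type and 0.16 under the ∆wee1 label, and the authors' deposited table called 30 up in wild type and 11 under the ∆wee1 label. Untreated they were higher under the ∆wee1 label by a median of 0.22, and after H2O2 the gap was -0.01. The median gap of the list was thus found in the untreated pools, for the values as deposited. Single members differed: the gap was -0.04 untreated and -0.55 after H2O2 for tsr2, and -0.06 and -0.40 for erb1.

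In imp4, lcp5, dbp2 and rlp7 the genotype gap was larger in the untreated pools. imp4, of the U3 particle that cuts ribosomal RNA, rose from 22.8 to 67.9 FPKM in wild type and from 41.1 to 71.0 FPKM under the ∆wee1 label (-0.76 ± 0.34). lcp5, known in budding yeast from the same assembly, rose from 28.1 to 71.9 FPKM and from 49.4 to 75.6 FPKM (-0.72 ± 0.32), and dbp2, an RNA helicase, from 50.9 to 176 FPKM and from 73.6 to 160 FPKM (-0.65 ± 0.29). rlp7, known in budding yeast as a ribosomal protein relative that acts in assembly, rose in wild type from 305 to 577 FPKM and was listed at 406 and 478 FPKM under the ∆wee1 label (-0.68 ± 0.31). None of these passed the test.

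Cytoplasmic ribosomal proteins had a smaller but even shift, with 121 of 131 below 0, a median of -0.15 and quartiles of -0.19 and -0.10. With equal coding sums 91 of 131 were below 0 with a median of -0.03, and after quantile normalization 79 with a median of -0.02. Ribosomal proteins are among the most abundant transcripts, and many have near-identical copies whose reads could be split. Their response was slightly above 0 in both strains, with medians of 0.29 and 0.15, and rps2801 (-0.46 ± 0.32) and rpl8 (-0.39 ± 0.40) had the lowest named values.

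Lists of similar size and direction were the nuclear genes of the respiratory chain (35 of 43 below 0, median -0.13, with rip1 at -0.48 ± 0.47), glycolysis and fermentation (15 of 18, median -0.13, with gpd3 at -0.56 ± 0.33) and chaperones (22 of 28, median -0.12). Under equal coding sums these 3 medians were -0.02, -0.02 and -0.01. Among the chaperones hsp16, a small heat shock protein, rose from 1273 to 2879.7 FPKM in wild type and from 2578 to 4117 FPKM under the ∆wee1 label (-0.50 ± 0.35). cdc37, a partner of Hsp90 that serves protein kinases, was at -0.71 ± 0.60, and bip1, the chaperone of the endoplasmic reticulum, lay on the other side at 0.39 ± 0.34.

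**Figure D5:**
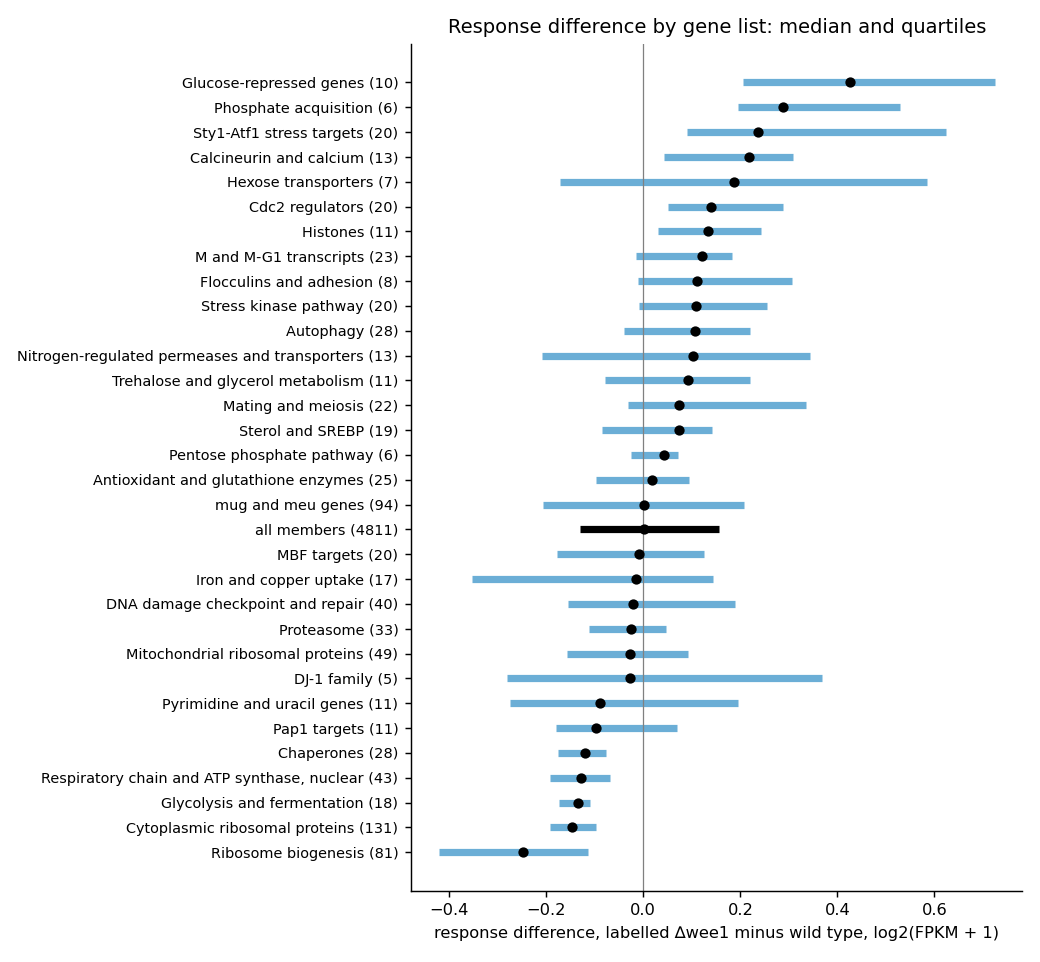
Response difference (log2, labelled ∆wee1 minus wild type) of 31 gene lists and of all 4811 genes (black bar); points are medians, bars run from the lower to the upper quartile over genes, and the number of genes is in brackets. Glucose-repressed genes, phosphate genes and Sty1-Atf1 targets lie at the top and ribosome biogenesis genes at the bottom with a median of -0.25.

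Calcium and phosphate genes leaned towards a higher response. Their median wild-type responses were below 0, at -0.30 and -0.62. Lowered genes leaned this way in general, with a median response difference of 0.21 for mean responses between -1 and -0.5. Of 13 calcineurin and calcium genes 11 were above 0, with a median of 0.22, led by prz1 and by cmk1, a calmodulin-dependent kinase that fell from 68.8 to 25.9 FPKM in wild type and from 61.1 to 35.0 FPKM under the ∆wee1 label (0.59 ± 0.31). All 6 phosphate acquisition genes were above 0, with a median of 0.29. pho84, the phosphate transporter, fell from 253 to 158 FPKM in wild type and was listed at 62.2 and 58.9 FPKM under the ∆wee1 label (0.60 ± 0.32). Its regulator pho7 fell from 18.02 to 9.35 FPKM in wild type and was listed at 19.5 and 15.98 FPKM under the ∆wee1 label (0.61 ± 0.32).

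Cell cycle genes were examined because wee1 acts there. RNA came from whole cultures, so a larger share of cells in a phase and more RNA per cell cannot be told apart. Of 20 regulators of Cdc2, 16 were above 0, with a median of 0.14. Their median response was -0.40 in wild type and -0.20 under the ∆wee1 label, and lowered genes leaned this way in general. cdc25, the phosphatase that opposes Wee1, fell from 20.4 to 11.9 FPKM in wild type and was listed at 12.3 and 10.16 FPKM under the ∆wee1 label (0.48 ± 0.32). cdr1, a kinase that inhibits Wee1, was at 0.52 ± 0.31 and mcs6, of the kinase that activates Cdc2, at 0.48 ± 0.32. wee1 itself, with 2 nearly flat responses, was at 0.06 ± 0.31.

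Transcripts of mitosis and early G1 had 16 of 23 members above 0 and a median of 0.12, among them eng1, the glucanase that separates daughter cells, at 0.58 ± 0.31. The median responses of this list were -0.63 in wild type and -0.51 under the ∆wee1 label. Its median response difference was below the 0.21 of all genes with a mean response between -1 and -0.5. Histone genes, which are read in S phase, had 10 of 11 above 0, with a median of 0.13 and hht2 at 0.35 ± 0.41. Histone copies are nearly identical, so their values are uncertain. Targets of MBF, the G1 to S factor, had a median of -0.01. Within them cdt1, which licenses replication origins, was level in wild type at 19.9 and 20.1 FPKM and fell from 38.2 to 21.2 FPKM under the ∆wee1 label (-0.83 ± 0.35), and mrc1, of the replication checkpoint, fell there from 23.0 to 12.1 FPKM (-0.62 ± 0.34).

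DNA damage checkpoint and repair genes had a median of -0.02, with 21 of 40 below 0. rad54, a helicase of recombination repair, rose from 12.03 to 22.3 FPKM in wild type and was listed at 18.4 and 20.5 FPKM under the ∆wee1 label (-0.68 ± 0.32). The proteasome (33 genes, median -0.02), mitochondrial ribosomal proteins (49 genes, median -0.03) and the mug and meu genes, named for a rise in meiosis (94 genes, 47 on each side of 0), were centred close to all genes. The remaining lists, from autophagy to iron uptake, had medians between -0.09 and 0.11.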

How the data were processed

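RNA from 8 libraries in 4 groups was measured. Reads were handled with cutadapt, HISAT2 and Cuffdiff, per the submitters' processing notes, which give no versions; build and strandedness are likewise not stated. The authors deposited FPKM values, 1 per gene and group. Their deposited comparison table, per the file headers, holds log2 fold changes, a test statistic (a score), p-values (lowest 5e-05) and q-values for 6 pairs of groups.

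Here responses were differences of log2(FPKM + 1). Group variances were solved from (fold change / statistic) squared over the 6 pairs (largest misfit 0.000331 of their size). Scaled to the pseudocount, they gave a two-sided normal z test. A run on simulated data drew its noise from these same variances, so it cannot show whether the errors are right for these data. Of the 4811 genes, 16 had no solvable variance. Python 3.11.15, pandas 2.3.3, numpy 2.4.6 and SciPy 1.17.1 were used. Since values are pooled, precision rests on the authors' statistics alone.

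The genes, the 31 lists and the tests were chosen with earlier results of these data known. Named genes are those past the test, the 6 largest differences per class, up to 3 per list and a fixed set. Outside that rule, and chosen after their values were seen, are pun1, pil2, SPCC794.03, SPBC1271.08c, ecl3, fes1, hri1, dbp2, gal1, gal7, tps1, tms1, bip1, puf5, zpr1, pqr1, exg1, SPAC4H3.03c, SPBC409.08, lsb1, SPCC16A11.15c, ksh1, SPCC18B5.02c, SPCPB1C11.02, SPBPB21E7.10 and SPBPB21E7.11. No promoter table was used; promoters came from RefSeq, whose build may differ from the files'. Alternatives covered pseudocounts, filters, scalings, errors, thresholds and shared loci.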

Additional observations from a re-analysis of the deposited data

Results flagged for a closer look

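The test of the response difference itself passed for 3 coding genes (z test from the authors' statistics). SPAC2H10.01 had a response difference of 1.37 ± 0.29 (adjusted p = 0.000987, from the authors' statistics), from a fall in wild type to a rise under the ∆wee1 label. cmt2 had a response difference of 1.47 ± 0.36 (adjusted p = 0.0143, from the authors' statistics), with a fall in both strains. rnh203 had a response difference of -3.79 ± 0.9973 (adjusted p = 0.0442, from the authors' statistics), which rests on 1 pool listed at 0.0354 FPKM. Over all genes listed, 20 passed, of which 17 were noncoding.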

How the results depend on the processing

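No paired analysis was possible because the files give 1 pooled value per group; the replicate block and leaving out each replicate were not run. Depth per library is unknown, which limits every value. SPAC2H10.01 kept its call under every alternative tried; cmt2 lost it with a pseudocount of 5 and quantile normalization, and rnh203 with pseudocounts of 0.1 and 5, equal sums and quantile normalization. pun1 and mug108 passed with equal sums, and mug108, mel1 and lsd90 with a pseudocount of 5. The causes were not tested.

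The z test passed 2 genes higher and 1 lower. It passed 0 lower with a pseudocount of 0.1, 4 and 0 with a pseudocount of 5, 4 and 0 with equal sums, 1 and 0 with quantile normalization, 1 and 0 without shared loci, 19 and 8 with errors from the p-values, and 4 higher at an adjusted p under 0.1. The 2-fold counts (38 higher, 22 lower) were 11 lower with a pseudocount of 5, 34 lower with no filter, 12 and 6 without shared loci, 154 and 92 at 1.5-fold, 17 and 9 at 3-fold, and 10 and 3 with an error of at most 0.5, a limit chosen after seeing the data.

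In the order rise stronger, rise weaker, fall stronger, fall weaker, fall to rise and rise to fall, the classes held 10, 12, 5, 18, 10 and 5 genes. They held 4, 4, 2, 4, 4 and 0 without shared loci, 3, 4, 2, 9, 5 and 3 at 3-fold, and 3, 2, 0, 6, 1 and 1 with an error of at most 0.5. At 1.5-fold the first 5 held 52, 69, 16, 84 and 18. Rise weaker was 19 with a pseudocount of 0.1, and fall stronger, fall to rise and rise to fall were 2, 6 and 1 with a pseudocount of 5 and 10, 18 and 10 with no filter. Fall stronger was 3 with a filter on the mean, rise to fall 3 with equal sums, and rise stronger 6 without genes listed at 0, chosen after seeing the data.

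The median response difference of all genes was 0.11 with equal sums. For the most lowered genes it was 0.27 with quantile normalization and 0.34 without shared loci. Signs turned for SPBPB21E7.10 (-0.36, pseudocount 0.1), srx1 (0.034 with a pseudocount of 5 and 0.032 with equal sums), pap1 (0.098, equal sums) and sty1 (0.10 with equal sums and 0.021 with quantile normalization).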

Other observations

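Uracil genes were not described above. urg2, a uracil phosphoribosyltransferase raised by uracil, fell in both strains, from 132 to 79.4 FPKM in wild type and from 54.3 to 20.7 FPKM under the ∆wee1 label, and its response difference was -0.62 ± 0.32. The uracil permease fur4 fell from 61.5 to 35.1 FPKM in wild type and was listed at 34.1 and 28.8 FPKM under the ∆wee1 label, a response difference of 0.56 ± 0.30. Both genes were lower under the ∆wee1 label in every condition. gld1, a glycerol dehydrogenase, fell from 87.2 to 25.6 FPKM in wild type and from 76.5 to 15.3 FPKM under the ∆wee1 label (-0.52 ± 0.52). SPCPB1C11.02, an amino-acid permease by annotation, fell from 21.1 to 4.33 FPKM in wild type and from 17.9 to 8.12 FPKM under the ∆wee1 label (1.003 ± 0.37, which passed with the smaller errors).

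SPCC18B5.02c, at III:717851-718869 before wee1, which starts at 721804, was listed at 28.7 and 11.2 FPKM in wild type and at 20.3 and 22.01 FPKM under the ∆wee1 label, a response difference of 1.39 ± 0.86. SPBC24C6.09c, a probable phosphoketolase, was listed at 0.205 and 3.40 FPKM in wild type and rose from 3.24 to 47.7 FPKM under the ∆wee1 label (1.65 ± 1.41). ksh1, the kish protein, was listed at 36.9 and 9.04 FPKM in wild type and at 28.5 and 27.6 FPKM under the ∆wee1 label (1.87 ± 1.94). SPAC922.09 was listed above 0 in the untreated pool labelled ∆wee1 alone, at 8.70 FPKM, and SPAP27G11.11c in treated wild type alone, at 6.77 FPKM.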
